A study of Mus musculus with 14 samples.

Results

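The spinal interneuron identity factors described here are 9 genes taken by symbol through their RefSeq accessions, *Pou4f1*, *Tlx3*, *Barhl2*, *Pax2*, *Pax8*, *En1*, *Gata2*, *Foxd3* and *Bhlhe22*, and all 9 were found among the 22471 gene symbols of the RNA-seq tables. The study asked what the loss of TAF9B, a TBP-associated factor, does to neuronal gene expression. Poly-A RNA was sequenced from newborn C57BL/6 mice and from mouse ES cells differentiated toward motor neurons, with 1 library per condition and 11 libraries in all. The tissue libraries are spinal column of WT and *Taf9b* KO (TAF9B -/-) newborns and spinal cord of WT newborns. The study describes the spinal column as lumbar and from littermates, and gives no level for the spinal cord. The culture libraries are ES cells and embryoid bodies (EBs) at day 2, day 4 and day 6, each as WT (JM8 clone) and *Taf9b* KO (Taf9b_BG10 clone). EBs were grown with retinoic acid and the smoothened agonist SAG. ChIP-seq peaks of TAF9B and RNA POL2 come from WT EB-MN (EBs enriched in motor neurons) of another line, the HBG3 clone. The KO mice derive from KO ES cells of a single clone, each culture genotype is 1 clone, spinal column is a dissection that also holds vertebrae, muscle and ganglia, and whether animals were pooled is not given in the sources used here.

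Spinal interneurons arise in ordered progenitor domains of the embryonic neural tube, and each postmitotic class is named by the transcription factors it switches on. Dorsal excitatory classes use *Pou4f1* (Brn3a), *Tlx3* and *Barhl2*, inhibitory classes use *Pax2*, *Pax8* and *En1*, ventral V2b cells use *Gata2*, and *Foxd3* and *Bhlhe22* mark several classes. Most of these factors also work outside the cord: *Pou4f1* and *Tlx3* in sensory neurons of the dorsal root ganglia, *Foxd3* in neural crest and in ES cells, *Gata2* in blood cells, mast cells and endothelium, and *Pax2* and *Pax8* in the kidney.

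Values are FPKM (fragment numbers divided by transcript length and by library size). With 1 library per condition no difference within a stage or tissue could be tested and no SD exists, and the 5 pairs of WT and KO libraries, from different stages and tissue, were not pooled into a test; read counts are not among these values, so depth is unknown. A gene was counted as lower or higher where it was above 1 FPKM in at least 1 of both libraries and differed by more than 2-fold. *Taf9b*, whose coding exons were replaced by a *LacZ-Neo* cassette in the KO allele, was at 6.65 FPKM in WT and 3.31 FPKM in KO spinal column. That is a log2 ratio of -1.01, no lower than the median of general neuron genes in the same libraries (-1.07), so it is a weak check of the label. In culture, *Taf9b* was higher in the libraries labelled KO than in those labelled WT at every stage, for example 4.08 against 0.516 FPKM at EB day 2. An FPKM value covers the whole gene and does not show which of its parts were read, and the source of these reads was not tested. Culture libraries are therefore called here by their labels.

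The promoters of the 3 members that differed past 2-fold in spinal column, and of the only member with a TAF9B peak at its start of transcription (*Gata2*), are shown as the 250 bases before the start in build mm9, 5′ to 3′ on the gene's strand. Capitals mark the CCAAT box, the GC box (spelled GGGCGG here) and the TATA box (spelled TATAAA) on either strand, so that each can also appear as its reverse complement. They lie at chr14:104867217-104867466 (minus strand, *Pou4f1*), chr11:33103589-33103838 (minus, *Tlx3*), chr19:44831634-44831883 (plus, *Pax2*) and chr6:88148408-88148657 (plus, *Gata2*).
Pou4f1: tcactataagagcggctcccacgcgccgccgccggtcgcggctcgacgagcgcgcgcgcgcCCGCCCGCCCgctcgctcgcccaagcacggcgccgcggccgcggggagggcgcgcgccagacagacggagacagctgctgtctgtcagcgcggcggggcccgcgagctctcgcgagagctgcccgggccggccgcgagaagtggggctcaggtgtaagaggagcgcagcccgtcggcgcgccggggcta
Tlx3: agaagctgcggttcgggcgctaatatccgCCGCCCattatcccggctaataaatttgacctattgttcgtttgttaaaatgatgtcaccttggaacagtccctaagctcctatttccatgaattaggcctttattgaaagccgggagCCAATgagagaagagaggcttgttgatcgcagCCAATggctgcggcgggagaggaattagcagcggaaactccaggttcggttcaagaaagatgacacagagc
Pax2: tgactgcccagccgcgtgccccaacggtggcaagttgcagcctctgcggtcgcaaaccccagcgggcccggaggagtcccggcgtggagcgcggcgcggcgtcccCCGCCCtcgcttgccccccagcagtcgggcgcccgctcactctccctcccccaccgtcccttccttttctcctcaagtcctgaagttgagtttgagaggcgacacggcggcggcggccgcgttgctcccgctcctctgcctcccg
Gata2: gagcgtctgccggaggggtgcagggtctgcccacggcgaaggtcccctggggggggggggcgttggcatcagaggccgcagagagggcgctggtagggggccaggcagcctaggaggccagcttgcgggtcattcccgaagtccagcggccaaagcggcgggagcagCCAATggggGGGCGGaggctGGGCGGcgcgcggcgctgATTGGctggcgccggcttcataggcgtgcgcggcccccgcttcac
No TATA box stood in these windows. The *Pou4f1* promoter held 2 overlapping GC boxes, *Tlx3* had 1 GC box and 2 CCAAT boxes, *Pax2* had 1 GC box, and *Gata2* had 2 of each. Over all 9 members a GC box was present in 6, a CCAAT box in 4 and a TATA box in 1 (*Bhlhe22*), beside 44.2%, 35.3% and 11.7% of 19065 promoters of all genes. GC content was 78% before *Pou4f1*, 74% before *Gata2*, 72% before *Pax2* and 48.8% before *Tlx3*, against a median of 56% over all promoters.

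Loss of *Taf9b* was first examined in newborn spinal column. *Pax2*, *Pou4f1* and *Tlx3*, the 3 members that stood highest in WT tissue, were each more than 2-fold lower in KO tissue, and 8 of the 9 members had a lower level in KO than in WT (46.6% of all loci above 1 FPKM did), of which 5 stood above 0 once log2 ratios were centred on general neuron genes. No member was more than 2-fold higher. Of all 14194 loci above 1 FPKM, 8.51% were more than 2-fold lower and 9.07% more than 2-fold higher. The median log2 ratio (KO over WT) of the 9 members was -0.52, and that of all loci above 1 FPKM was 0.06. Over the 8 members above 1 FPKM, a choice added after the data were seen, the median was -0.61. Centred on general neuron genes, the median of the 9 members turned to 0.54. The choice of the members was made with results of these libraries known, so these counts describe them and are not independent evidence. A lower level in bulk tissue can come from fewer cells of a type or from less RNA per cell, and these cannot be told apart here.

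**Figure D1:**
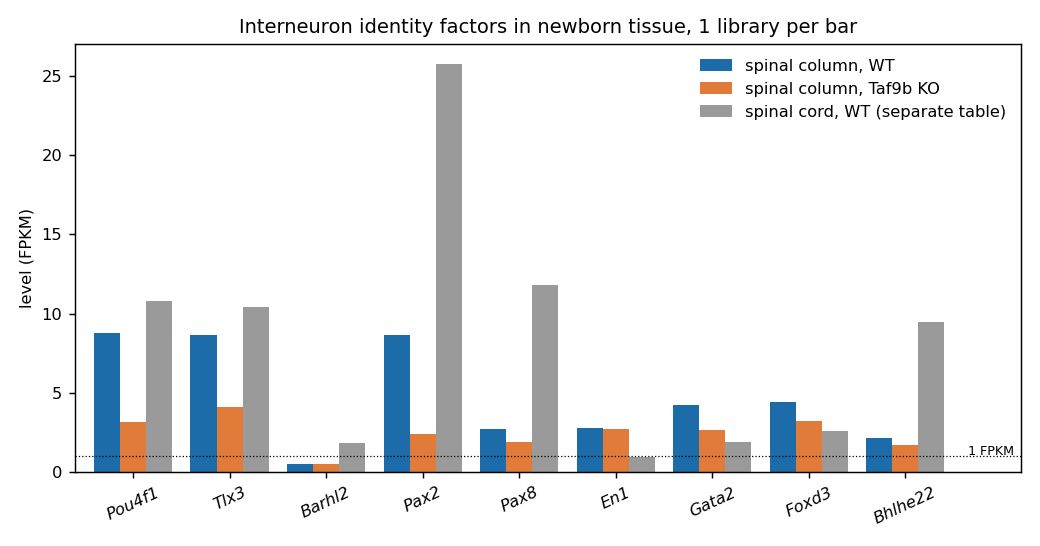
Level (FPKM, y axis from 0) of each member in WT spinal column, *Taf9b* KO spinal column and WT spinal cord, 1 library per bar; the dotted line marks 1 FPKM. *Pou4f1*, *Tlx3* and *Pax2* stand between 8.63 and 8.76 FPKM in WT spinal column and between 2.41 and 4.11 FPKM in KO, while *En1* shows nearly equal bars.

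Among the dorsal excitatory factors, *Pou4f1* (NM_011143, chr14:104861541-104867216, minus strand), a POU homeodomain factor, was at 8.76 FPKM in WT and 3.18 FPKM in KO spinal column, a log2 ratio of -1.46. *Tlx3* (NM_019916, chr11:33100752-33103588, minus strand), the homeodomain selector of glutamatergic fate in the dorsal horn, was at 8.63 and 4.11 FPKM, a log2 ratio of -1.07. That is close to the 2-fold limit, and with 1 FPKM added to both values it came to -0.92. *Barhl2* (NM_001005477, chr5:106881542-106887185, minus strand), a factor of commissural dI1 neurons, was below 1 FPKM in both libraries, at 0.483 and 0.525 FPKM.

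Of the inhibitory factors, *Pax2* (NM_011037, chr19:44831884-44912359, plus strand) had the lowest ratio of all members, with 8.63 FPKM in WT and 2.41 FPKM in KO spinal column (log2 ratio -1.84). Among all loci above 1 FPKM, 1.27% had a lower ratio. *Pax8* (NM_011040, chr2:24276080-24331086, minus strand), its paralog, was at 2.71 and 1.89 FPKM (log2 ratio -0.52), and *En1* (NM_010133, chr1:122499064-122504568, plus strand), the factor of V1 interneurons, was at 2.80 and 2.70 FPKM (log2 ratio -0.06). The column ratios of the inhibitory factors thus ran from the largest difference among the members to nearly none. *En1* was, however, at only 0.946 FPKM in WT spinal cord, and the part of V1 interneurons in its column value was not tested. The annotation puts genes on the opposite strand inside the loci of *Pax2* (*Gm20395* and *1700039E22Rik*) and *Pax8* (*Gm13415*), and whether reads were counted by strand is not given in the sources used here, so reads of these neighbours cannot be told apart from theirs. Annotations on the same strand, *AL732528.1* at *Pax8* and *BX005053.1* at *Foxd3*, could not be separated by strand either.

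The remaining 3 factors differed by less than 2-fold. *Gata2* (NM_008090, chr6:88148658-88157026, plus strand), a zinc finger factor, was at 4.26 FPKM in WT and 2.63 FPKM in KO spinal column (log2 ratio -0.70). *Foxd3* (NM_010425, chr4:99322990-99325362, plus strand), a forkhead factor, was at 4.43 and 3.23 FPKM (log2 ratio -0.45). *Bhlhe22* (NM_021560, chr3:17954325-17957514, plus strand), a basic helix-loop-helix repressor, was at 2.16 and 1.69 FPKM (log2 ratio -0.35). The order of the levels changed between genotypes: *Pou4f1*, *Tlx3* and *Pax2* led in WT tissue, whereas *Tlx3*, *Foxd3* and *Pou4f1* led in KO tissue and *Pax2* was the sixth.

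Other genes of spinal interneurons were lower as well. Of 30 further identity genes, 16 passed 1 FPKM, of which 5 were more than 2-fold lower in KO and 1 was more than 2-fold higher, with a median log2 ratio of -0.48. The lowest ratio was that of *Lmx1b*, also a factor of dorsal excitatory neurons, at 3.46 FPKM in WT and 0.720 FPKM in KO (log2 ratio -2.27). *Lhx2*, a factor of dI1 neurons that is also used outside the cord, had the highest ratio, at 0.495 and 2.86 FPKM (log2 ratio 2.53). *Atoh1* and *Ptf1a*, which act in dorsal progenitors, were listed at 0 in both libraries. Of 8 transmitter genes, 6 were above 1 FPKM; all 6 were lower in KO, 4 of them past 2-fold. They ran from *Slc6a5*, the glycine transporter of inhibitory neurons, at 4.99 and 1.19 FPKM, to *Slc18a3*, the vesicular acetylcholine transporter, with a log2 ratio of -0.44.

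**Figure D2:**
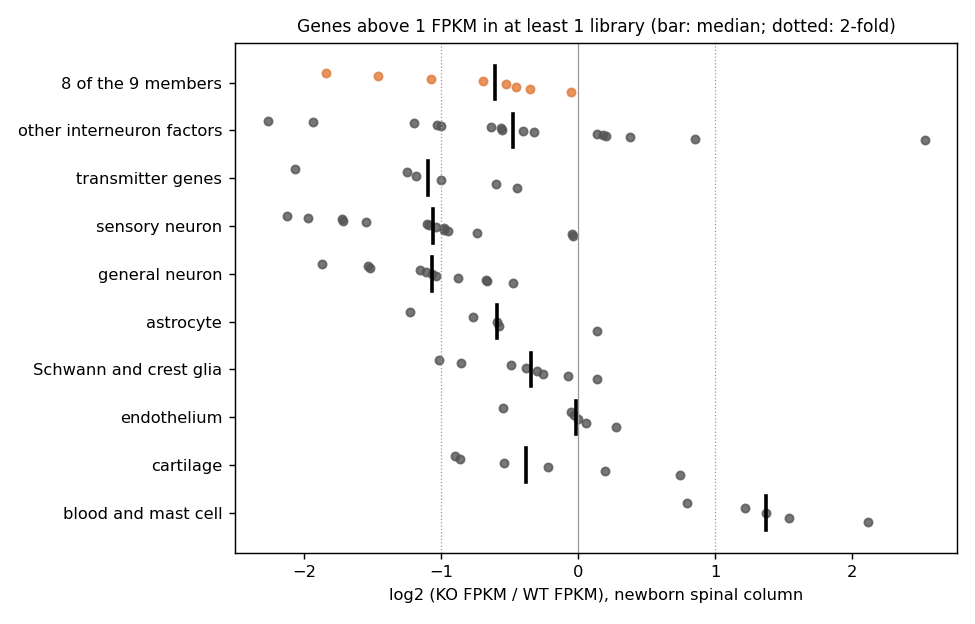
Log2 ratio (KO over WT spinal column, x axis) of each gene above 1 FPKM in at least 1 library, 1 dot per gene, with the median of each list as a bar and 2-fold as dotted lines. The members run from -1.84 to -0.06, general neuron and sensory neuron genes lie below 0, and blood and mast cell genes lie above 0.

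Markers of the cells that the dissection can hold were read beside these values: neuronal lists were lower in KO, and blood and mast cell genes were higher. General neuron genes were lower in KO for all 11 that could be compared, 7 of them past 2-fold, with a median log2 ratio of -1.07, and their summed level was 1373 FPKM in WT and 754 FPKM in KO. They ran from *Nefm*, a neurofilament subunit (log2 ratio -1.87), to *Stmn2*, a regulator of microtubules (log2 ratio -0.47). Measured against that median, *Pax2* stood at -0.77, *Pou4f1* at -0.39 and *Tlx3* at -0.004 on the log2 scale, no member was past 2-fold lower, and *En1* was at 1.01. The signs of *Pax8*, *Gata2*, *Foxd3* and *Bhlhe22* also turned, to between 0.37 and 0.71. Sensory neuron markers were lower in KO for 14 of 14, 8 of them past 2-fold, with a summed level of 401 FPKM in WT and 215 FPKM in KO. The ends of that list were *Scn10a*, a sodium channel of nociceptors, at 13.9 and 3.20 FPKM, and *Tac1*, the substance P precursor, at 25.6 and 24.9 FPKM. The part of sensory neurons in the values of *Pou4f1* and *Tlx3* was not tested.

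Schwann and crest glia markers, which bear on *Foxd3*, were lower in KO for 7 of 8, but 1 was past 2-fold (*Cdh19*, an adhesion molecule, at 1.70 and 0.844 FPKM), and their summed level was 324 and 300 FPKM. The highest ratio in that list was that of *Fabp7*, a fatty acid binding protein, at 136 and 150 FPKM. *Fabp7* makes up a large part of both sums, is also in the astrocyte list and was at 729 FPKM in WT spinal cord. The sums are therefore not specific to Schwann and crest glia. For *Gata2*, the 6 endothelial markers summed to 98.8 FPKM in WT and 103 FPKM in KO, from *Kdr* (5.99 and 4.09 FPKM) to *Pecam1* (26.8 and 32.5 FPKM). Blood and mast cell markers that could be compared were higher in KO for 5 of 5, 4 of them past 2-fold, and the list summed to 120 and 298 FPKM. They ran from *Alas2*, of haem synthesis (17.0 and 29.6 FPKM), to *Epor*, the erythropoietin receptor (0.586 and 2.54 FPKM), and included the mast cell protease *Cpa3* (23.8 and 55.4 FPKM); *Kit*, the stem cell factor receptor, had no valid value. *Gata2* itself was lower in KO, and the part of blood cells, mast cells and endothelium in its value was not tested. Kidney markers summed to 1.97 and 3.38 FPKM, with *Umod* listed at 0 in both libraries, and the only one above 1 FPKM was *Six2*, which is also used in skeletal tissue, at 0.746 and 1.91 FPKM.

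Astrocyte markers were lower for 4 of 5, from *Aldh1l1* (10.8 and 4.62 FPKM) to *Fabp7*. The 2 motor neuron markers above 1 FPKM were both lower, *Isl2* at 19.7 and 7.46 FPKM and *Slc18a3* as above. *Isl2* was lower in WT spinal cord (3.07 FPKM, normalized separately) than in WT column, whereas *Slc18a3* was higher in cord (22.5 FPKM). How much of the *Isl2* value comes from motor neurons was not tested. Below 1 FPKM, *Mnx1*, a defining motor neuron marker, was at 0.353 FPKM in WT and listed at 0 in KO. *Lhx3* and *Lhx4* were also lower, and *Chat* was higher (0.107 and 0.150 FPKM). Cartilage markers were lower for 4 of 6, from *Col2a1*, a cartilage collagen (156 and 83.6 FPKM), to *Hapln1*, a link protein (6.42 and 10.8 FPKM). Among 7 muscle markers 4 had no valid value in this table, *Acta1* being listed at 0 in both libraries. The other 3 ran from *Myh3* (420 and 218 FPKM) to *Tnnt3* (2927 and 4489 FPKM). Of the pluripotency genes 3 were above 1 FPKM, from *Esrrb* (2.12 and 1.73 FPKM) to *Nanog* (0.435 and 1.68 FPKM), and *Pou5f1* was listed at 0 in both.

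Spinal cord of WT newborns was then set beside WT spinal column to see which members belong to the cord itself. The libraries were normalized in separate tables, so these ratios are descriptive. 4 members were more than 2-fold higher in spinal cord, 2 were more than 2-fold higher in spinal column and 3 were within 2-fold. Of 13860 genes above 1 FPKM in at least 1 of both, 15.9% were more than 2-fold higher in spinal cord and 17.2% more than 2-fold higher in spinal column. *Pax2* was at 25.7 FPKM in cord (2.98-fold its level in column), *Pax8* at 11.8 FPKM (4.34-fold), *Bhlhe22* at 9.46 FPKM (4.38-fold) and *Barhl2* at 1.81 FPKM (3.75-fold). General neuron genes were higher in cord for 11 of 11, with a median log2 ratio (cord over column) of 1.18, and the other interneuron genes for 18 of 21, with a median of 1.77.

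*Pou4f1* and *Tlx3* did not follow them. *Pou4f1* was at 10.8 FPKM in cord and 8.76 FPKM in column, and *Tlx3* at 10.4 and 8.63 FPKM, so both were at most 1.23-fold higher in cord. Sensory neuron markers were higher in column for 11 of 14, with a median log2 ratio (cord over column) of -3.03; *Scn11a*, for example, was at 0.308 FPKM in cord and 5.51 FPKM in column. *En1*, *Gata2* and *Foxd3* were higher in column. *En1* was at 0.946 FPKM in cord against 2.80 FPKM in column, *Gata2* at 1.92 against 4.26 FPKM, and *Foxd3* at 2.61 against 4.43 FPKM. Blood and mast cell markers were higher in column for 4 of 4, with a median log2 ratio (cord over column) of -6.28, endothelial markers for 6 of 6, with a median of -1.12, and Schwann and crest glia markers for 6 of 8. What these cells contribute to the column levels of *En1*, *Gata2* and *Foxd3* was not tested. The highest-ranking members in cord were *Pax2* and *Pax8*, and the lowest was *En1*.

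In the table that holds spinal cord beside WT-labelled ES cells, 6 members were more than 2-fold higher in cord and 1 was more than 2-fold lower, where 30.5% of 14348 loci were more than 2-fold higher and 35.7% more than 2-fold lower. *Pax2* went from 0.0212 FPKM in ES cells to 25.7 FPKM in cord. *Pax8* went from 0.246 to 11.8 FPKM, *Bhlhe22* from 0.299 to 9.46 FPKM and *Pou4f1* from 0.461 to 10.8 FPKM. *Tlx3* went from 0.710 to 10.4 FPKM and *Barhl2* from 0.130 to 1.81 FPKM, so that all 6 stood below 1 FPKM in ES cells. *Foxd3*, which ES cells also use, was the member lower in cord, with 6.01 FPKM before and 2.61 FPKM in cord. It was no longer past 2-fold once ratios were centred on the all-gene median, -0.26. *Gata2* stood at 1.23 and 1.92 FPKM, and *En1* stayed below 1 FPKM in both, at 0.557 and 0.946 FPKM.

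In culture, ES cells and EBs were compared at each stage, library labelled KO over library labelled WT. In ES cells and at EB day 2, no member differed past 2-fold. In ES cells, 0.591% of 12019 loci were more than 2-fold lower and 0.541% more than 2-fold higher, and at day 2 these shares were 1.4% and 1.19% of 11951 loci. *Foxd3* was the leading member at both stages, at 5.52 (labelled WT) and 4.56 FPKM (labelled KO) in ES cells and at 14.0 and 13.0 FPKM at day 2. *Gata2* was at 1.13 and 1.68 FPKM in ES cells and at 0.330 and 0.641 FPKM at day 2. *Tlx3* was at 0.651 and 0.529 FPKM, then at 0.889 and 1.08 FPKM. The other 6 members were below 1 FPKM in all 4 libraries: *Pou4f1* between 0.423 and 0.618 FPKM, *En1* between 0.389 and 0.629 FPKM, *Pax8* between 0.140 and 0.379 FPKM, *Bhlhe22* between 0.123 and 0.304 FPKM, *Barhl2* between 0.0691 and 0.146 FPKM, and *Pax2* between 0.00780 and 0.0560 FPKM. Ratios at such levels carry little weight, and those of *Pax2* and *Barhl2* at day 2, past 2-fold on values under 0.15 FPKM, were not counted.

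**Figure D3:**
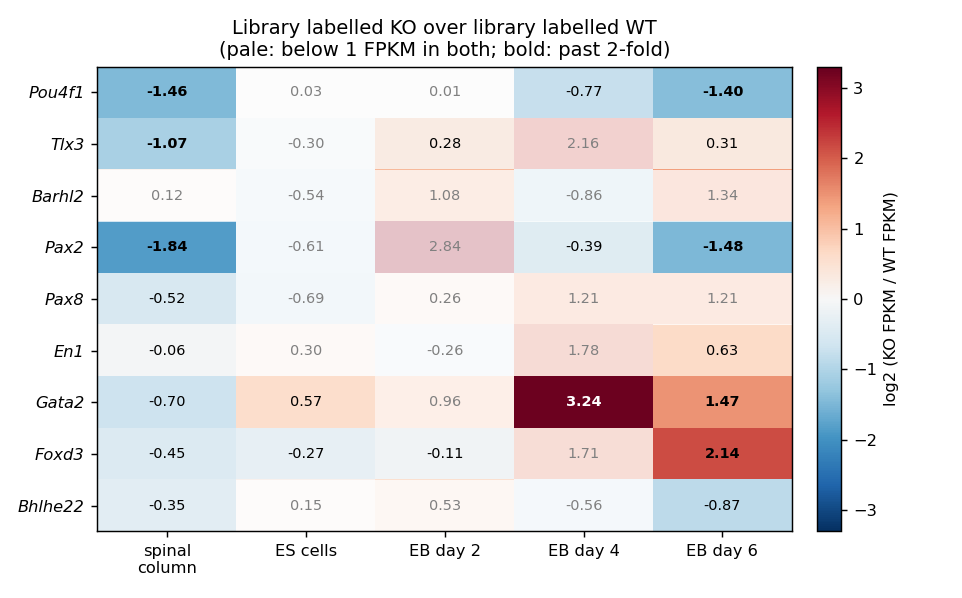
Log2 ratio (library labelled KO over library labelled WT) of each member (rows) in the 5 comparisons (columns), blue where lower and red where higher; pale cells were below 1 FPKM in both libraries and bold values were past 2-fold. *Pax2* and *Pou4f1* are blue in spinal column and at EB day 6, and *Gata2* is red at EB day 4 and day 6.

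At day 4, the stage labelled neuronal progenitors, *Gata2* was the only member both above 1 FPKM and past 2-fold: it had 0.417 FPKM under the WT label and 3.94 FPKM under the KO label (log2 ratio 3.24). With 1 FPKM added to both values the ratio came to 1.80, and *Gata2* was not above 1 FPKM in both libraries. At this stage 12.1% of 12543 loci were more than 2-fold higher and 4.43% more than 2-fold lower. *Pou4f1* was at 1.84 and 1.07 FPKM and *Pax2* at 1.18 and 0.899 FPKM. The other 6 were below 1 FPKM in both libraries: *Tlx3* at 0.218 and 0.975, *En1* at 0.103 and 0.354, *Foxd3* at 0.0965 and 0.316, *Pax8* at 0.128 and 0.296, *Bhlhe22* at 0.515 and 0.349 and *Barhl2* at 0.0601 and 0.0330 FPKM. Of these, *Tlx3*, *En1*, *Foxd3* and *Pax8* were also more than 2-fold higher under the KO label, but on values below 1 FPKM, and were not counted. *Foxd3* was thus far below its day 2 level under both labels. Pluripotency genes were more than 2-fold higher in the library labelled KO for 6 of 6.

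At day 6, labelled motor neuron, the members divided by direction. *Pax2* had 1.74 FPKM under the WT label and 0.623 FPKM under the KO label (log2 ratio -1.48), and *Pou4f1* at 2.37 and 0.901 FPKM (log2 ratio -1.40). These 2 were more than 2-fold lower, as were 9.93% of 12985 loci, but with 1 FPKM added to both values they came to -0.76 and -0.83, within 2-fold, and neither was above 1 FPKM in both libraries. *Foxd3* was at 1.58 and 6.99 FPKM (log2 ratio 2.14) and *Gata2* at 2.84 and 7.87 FPKM (log2 ratio 1.47), more than 2-fold higher, as were 10.5% of loci. Within 2-fold were *Bhlhe22* at 1.55 and 0.848 FPKM, *En1* at 0.888 and 1.38 FPKM and *Tlx3* at 1.39 and 1.72 FPKM, while *Pax8* (0.0945 and 0.219 FPKM) and *Barhl2* (0.0762 and 0.193 FPKM) were below 1 FPKM in both.

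Beside these values, general neuron genes at day 6 were more than 2-fold lower in the library labelled KO for 12 of 12, from *Elavl4* to *Stmn2*, with a median log2 ratio of -4.09 and a summed level of 1271 FPKM against 147 FPKM. Motor neuron markers were more than 2-fold lower for 6 of 6, with *Chat* at 1.05 FPKM and listed at 0, and pluripotency genes were more than 2-fold higher for 5 of 6. The median of the 9 members was 0.63. Over the 7 members above 1 FPKM in at least 1 library, the filter used for the lists, the median was 0.31. That choice was added for the members after the data were seen. Of the further interneuron genes, 14 were above 1 FPKM, of which 5 were more than 2-fold lower and 1 was more than 2-fold higher. The lowest was *Prdm8*, a repressor that works with *Bhlhe22*, with 47.4 FPKM (WT label) against 2.07 FPKM (KO label), and the highest was *Gata3*, which V2b cells also use, at 1.91 and 4.97 FPKM. Of the transmitter genes, 2 were above 1 FPKM, both of them cholinergic (*Chat* and *Slc18a3*).

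**Figure D4:**
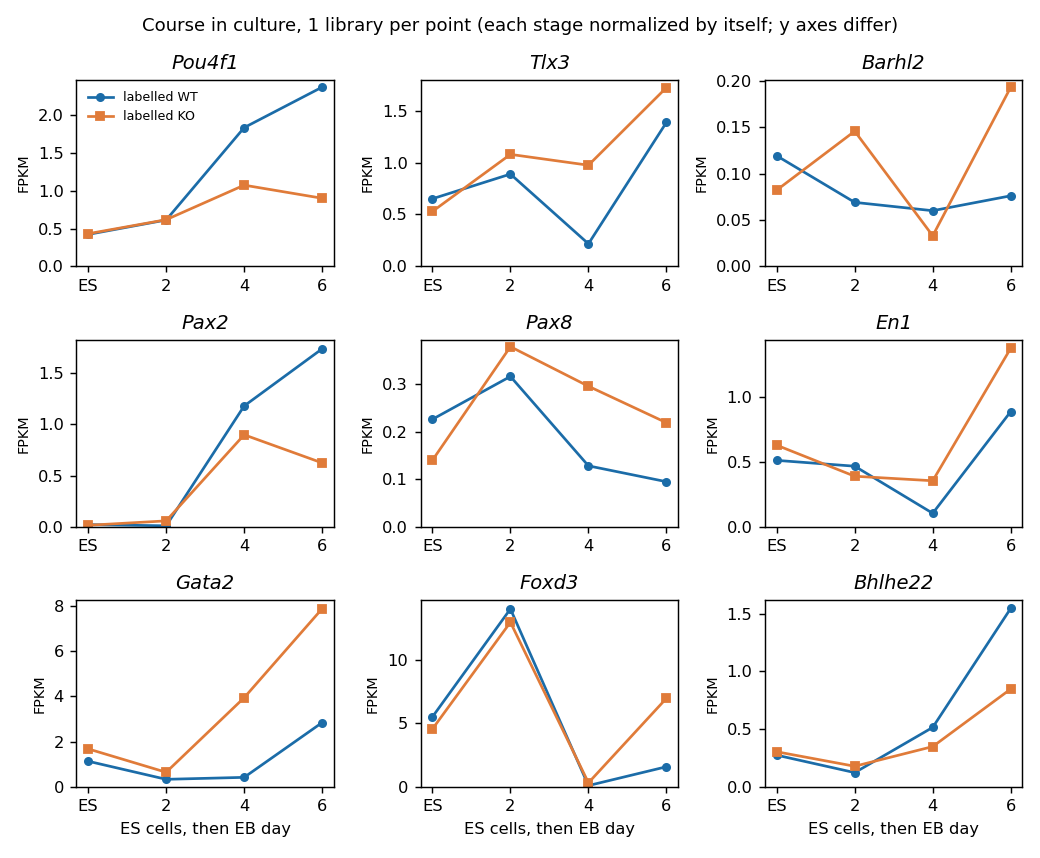
Level (FPKM, y axes differ) of each member in ES cells and in EBs at day 2, day 4 and day 6, for libraries labelled WT (circles) and KO (squares), 1 library per point. *Pou4f1* and *Pax2* are higher at day 6 than at day 4 under the WT label and lower under the KO label, and *Foxd3* peaks at day 2 under both.

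Followed over the course, with each stage normalized in its own table, 8 members were higher at day 6 than at day 4 under the WT label and 6 under the KO label, members below 1 FPKM included. Of all genes above 1 FPKM at either stage, 55.3% were higher at day 6 under the WT label and 52.5% under the KO label. The exceptions were *Pax8* under both labels, and *Pou4f1* and *Pax2* under the KO label. Day 6 of culture stayed far from the newborn cord for most members. Levels in all 8 culture libraries lay below WT spinal cord for 6 members, and below WT spinal column for 7; of 15525 genes that passed 1 FPKM in any of the 11 libraries, these shares were 30.2% and 31.4%. *Pax8* in spinal cord was 31.1-fold above its highest culture level, *Pax2* 14.8-fold, *Barhl2* 9.36-fold, *Bhlhe22* 6.11-fold, *Tlx3* 6.03-fold and *Pou4f1* 4.56-fold. *Gata2* and *Foxd3* had their highest level of the series in culture, *Gata2* in the day 6 library labelled KO (7.87 FPKM) and *Foxd3* in the day 2 library labelled WT (14.0 FPKM). *En1* had its highest level in WT spinal column.

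The 9 members did not share one pattern over the 11 libraries. On log2(FPKM + 1) values, Pearson's r was highest for *Barhl2* with *Pax8* (0.98) and *Pou4f1* with *Pax2* (0.98). It was lowest for *Pax2* with *Foxd3* (-0.30). The points share libraries that fall into tissue and culture, so these are descriptions. *Barhl2* passed 1 FPKM only in WT spinal cord (1.81 FPKM), so its values of r rest largely on that library. Among some 12349 genes reaching 5 FPKM, those most like *Pax2* were *Caskin1* (0.997), *Grid1* (0.995) and *Srcin1* (0.995), and those most like *Pou4f1* were *Olfm1* (0.987), *Atp6v0a1* (0.985) and *Astn1* (0.985). For *Pax8* they were *Tspyl3*, *Slc39a12* and *Magi2* (0.995 to 0.996), for *Barhl2* *B830017H08Rik*, *Unc13c* and *Magee2* (0.985), and for *Tlx3* *5730409E04Rik*, *Kcnc4* and *Mast1* (0.977 to 0.979). For *Bhlhe22* they were *2810029C07Rik*, *Nkx2-2* and *Adra2a* (0.981 to 0.990). *En1* was most like *Igfbp6* (0.986), *Gng11* (0.979) and *Tnfsfm13* (0.977). The closest genes were less close for *Foxd3*, with *Exoc3l* (0.942), *Spry4* (0.904) and *Tmem238* (0.895), and for *Gata2*, with *Dkkl1*, *Tinagl1* and *Clu* (0.906 to 0.908).

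Lastly, peaks of TAF9B and RNA POL2 in WT EB-MN were placed around the members. *Gata2* was the only member with a TAF9B peak midpoint within 500 bp of its start of transcription, beside 18.3% of all 19069 genes; no member had an RNA POL2 peak there, beside 30.9% of all genes. Within 50 kb, 4 members had a TAF9B peak (*Gata2*, *Pax2*, *En1* and *Tlx3*) against 54.1% of all genes, and 1 had an RNA POL2 peak (*Tlx3*) against 55.9%. All genes were also limited to the 11290 above 1 FPKM in at least 1 EB day 6 library, of either label. The TAF9B shares were then 27.1% at the start and 66.6% within 50 kb. Of the members, 7 pass that filter, and the 4 with a TAF9B peak are among them. The peaks were called by the authors from 1 ChIP per antibody, in a line and at a stage other than the RNA-seq libraries.

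**Figure D5:**
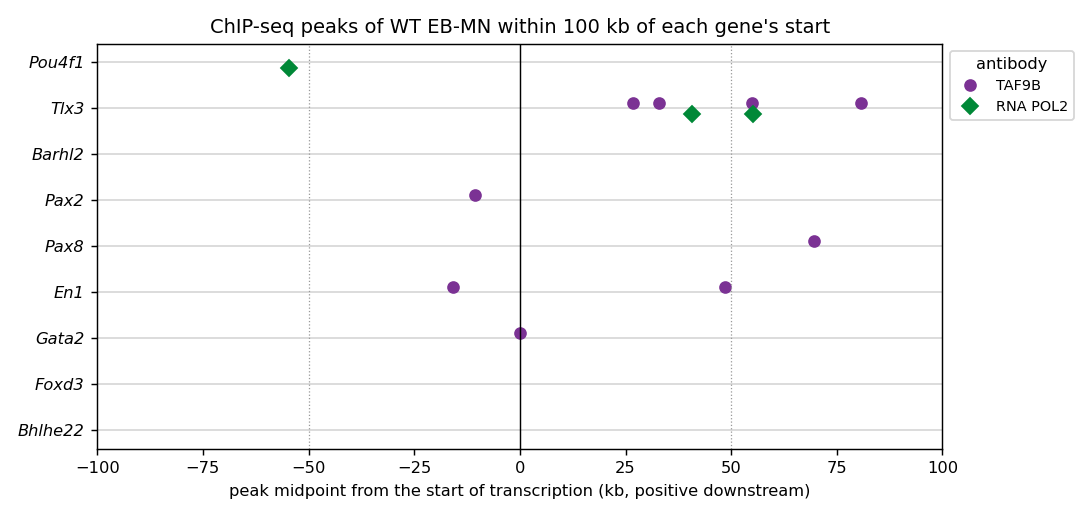
Midpoints of TAF9B (circles) and RNA POL2 (diamonds) peaks within 100 kb of each member's start of transcription, in kb along the direction of transcription, with dotted lines at 50 kb. *Gata2* has the only peak at a start of transcription, and *Foxd3*, *Bhlhe22* and *Barhl2* have none.

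The *Gata2* peak, at chr6:88148486-88148745 with a score of 106 (65.9% of TAF9B peaks scored lower), had its midpoint 42 bp before the start, so that most of it lies in the promoter printed above, over its CCAAT and GC boxes; a longer annotated *Gata2* transcript starts upstream and has an intron there. The *Pax2* peak, at chr19:44821155-44821371 with a score of 67.2, lay between genes 10.6 kb upstream. Upstream of *En1*, a peak at chr1:122483112-122483326 with a score of 63.2 lay 15.8 kb away, and another, at chr1:122547421-122547572 with a score of 53.4, lay 48.4 kb downstream of the start. Both distal peaks whose nearest start is *Pax2* or *En1* on the upstream side are shown on the plus strand, with E-boxes (CANNTG, the letters that bHLH factors read) in capitals.
Pax2 peak: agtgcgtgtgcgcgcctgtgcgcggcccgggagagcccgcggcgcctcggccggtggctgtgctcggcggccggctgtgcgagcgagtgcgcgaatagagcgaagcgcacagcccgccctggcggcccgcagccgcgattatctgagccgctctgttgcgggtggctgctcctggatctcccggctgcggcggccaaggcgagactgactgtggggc
En1 peak: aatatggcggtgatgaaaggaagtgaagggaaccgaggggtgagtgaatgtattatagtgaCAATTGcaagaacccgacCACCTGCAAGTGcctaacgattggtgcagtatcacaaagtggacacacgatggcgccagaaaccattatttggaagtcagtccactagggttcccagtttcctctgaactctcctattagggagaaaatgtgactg
The *Pax2* peak held no E-box and had a GC content of 74.2%, and the *En1* peak held 3 E-boxes and had a GC content of 47%. Of 10402 TAF9B peaks, 60.4% held an E-box in the 200 bases around the midpoint.

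Near *Tlx3*, TAF9B peaks at chr11:33076674-33076888 and chr11:33070604-33070841, with scores of 75.8 and 74.1, lay 26.8 and 32.9 kb past the start, between genes, and both were nearer to the start of *Npm1*. The RNA POL2 peak at 40.7 kb, with a score of 1233, lay 325 bp from the *Npm1* start. The start closest to each of these peaks is thus that of a neighbour of *Tlx3*. Farther from *Tlx3*, a TAF9B peak at chr11:33048407-33048736 with a score of 259 (96.1% of TAF9B peaks scored lower) lay 55.0 kb past its start, overlapped an RNA POL2 peak and stood 1172 bp from the start of *Fgf18*, and another, with a score of 65.7, lay 80.7 kb away in an intron of *Fgf18*. Also beyond 50 kb, *Pax8* had a TAF9B peak 69.7 kb from its start, inside *Psd4*, and *Pou4f1* an RNA POL2 peak 54.6 kb upstream, in an exon of *Rnf219*. *Pou4f1*, lower past 2-fold in KO spinal column, had no TAF9B peak within 100 kb in these EB-MN.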

How the data were processed

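Poly-A RNA-seq of 11 libraries (1 per condition) and ChIP-seq of EB-MN were analysed. The authors mapped reads against RefSeq genes with TopHat and computed FPKM values with Cuffdiff; the deposited FPKM values were used without further normalization, in 6 tables of 23152 loci. Peaks are scores that the authors deposited in mm9 after Bowtie and MACS; versions and options are not given in the sources used here. The IgG library was not used here. The tables also hold the authors' own Cuffdiff fold changes, test statistics and p-values, which were not used. FPKM values under 0.05 showed no common step (the most frequent ratio between libraries covered at most 3.26% of loci), so read counts were not recovered and depth is unknown.

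Symbols came from RefSeq accessions (22766 to 22832 loci matched per table, GRCm38.p6 names only). Log2 ratios had no pseudocount, and loci with the status HIDATA or FAIL were not counted. Starts, strands and sequence came from mm9 (GENCODE vM1, NCBIM37); 90.4% of 19201 starts lay within 100 bp of an annotated transcript start. No test was made: each condition has 1 library, and pairs from different stages and tissue were not pooled. The members, the gene lists and the rules for the genes named (the lowest and highest ratio of each list, genes at 0, defining markers, and the 3 genes most like each member) were chosen with earlier results of these data known. Alternatives were pseudocounts of 0.1 and 1 FPKM, no filter, both libraries above 1 FPKM, centring on all genes or on general neuron genes, removal of a lowess trend (fraction 0.3) with transcript length, and other peak limits. The script that counts genes past 2-fold was run on simulated data, which checks the counting and not the calls. Python 3.11.15, statsmodels 0.14.6, pandas 2.3.3, matplotlib 3.10.9 and numpy 2.4.6 were used.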

Additional observations from a re-analysis of the deposited data

Results flagged for a closer look

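*Gata2*, *Foxd3* and *Tlx3* had opposite directions in spinal column and at EB day 6, and *Gata2* also at day 4, on ratios without centring; centred on general neuron genes, *Gata2* (0.37) and *Foxd3* (0.61) turned positive in spinal column and *Tlx3* stood at -0.004. Each direction rests on 1 library per label, and the differences were not tested. The log2 ratio (KO over WT label) of *Gata2* was 3.94 higher at EB day 4 and 2.17 higher at EB day 6 than in spinal column, where it was -0.70. That of *Foxd3* was 2.60 higher at EB day 6 than in spinal column, where it was -0.45. That of *Tlx3* was 1.38 higher at EB day 6 than in spinal column, where it was -1.07. *Taf9b* was higher in the culture libraries labelled KO. At day 6, general neuron genes had a median log2 ratio of -4.09 under the KO label, and pluripotency genes were more than 2-fold higher for 5 of 6.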

How the results depend on the processing

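Each comparison reported sets 1 library against 1, so none could be paired within a stage or tissue. A fit over the 5 pairs of WT and KO libraries with the stage as a block was not run. Of 112 alternative values of counts and medians, 94 kept their side of the 2-fold limit or stayed within 1.5 times; of 120 alternative ratios of single members, 110 kept their side (the filters cannot change a single ratio and are not among them), and no ratio past 2-fold changed sign. The sign of 5 members in spinal column, and of the median of all 9 (from -0.52 to 0.54), turned when ratios were centred on general neuron genes. Under that centring the count of members past 2-fold lower in spinal column went from 3 to 0 and that of members past 2-fold higher from 0 to 1. With 1 FPKM added, the 2 lower members at EB day 6 and the 1 below its ES cell level in spinal cord fell to 0, and the median at EB day 4 went from 1.21 to 0.20 (0.80 with 0.1 FPKM added). That median was positive through members below 1 FPKM: it was -0.39 over the 3 members above 1 FPKM in at least 1 library, a choice added after the data were seen, and -0.77 for the 1 above it in both. With no filter on low values, higher members numbered 2 at EB day 2, 5 at day 4 and 4 at day 6. Requiring 1 FPKM in both libraries left 0 higher members at day 4 and 0 lower members at day 6, where the median went from 0.63 to 1.47. Centring on all genes or removing the trend with length, both added after the data were seen, left 0 members past 2-fold lower in spinal cord against ES cells. With peaks scoring above the median, 1 member had a TAF9B peak within 50 kb, and a limit of 100 kb gave 2 members with an RNA POL2 peak. The cause of these shifts was not tested, beyond fewer loci passing the stricter filters. Unknown depth limits every value under 1 FPKM.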
